A study of Mus musculus with 30 samples.

Results

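Ccdc192 and Myo1a were followed as 2 of the 56748 genes counted in quadriceps muscle of 30 mice. They were chosen by their fold change in nontreated HSA-LR mice (NT) over wild-type mice (WT), as the genes with the largest rise, so their values in that comparison describe the choice and carry no test. HSA-LR mice are FVB/N mice with a human skeletal actin transgene that holds an expanded CTG repeat, and they serve as a model of myotonic dystrophy type 1 (DM1). The transgene is expressed in skeletal muscle, so the model covers the RNA disease of that tissue. WT mice were FVB/N without the transgene (n = 5), and NT were HSA-LR mice given no drug (n = 8). The other groups were HSA-LR mice injected in the tail vein at 8 weeks of age. They received pacDNA-L9, a bottlebrush polymer that carries the CAG-repeat locked nucleic acid oligonucleotide L9, in 3 dose groups. The dose was 5.3 mg/kg in 4 mice, 21.2 mg/kg in 3 others and 42.4 mg/kg in the last 3. By the paper, the 21.2 mg/kg dose was spread over 4 injections in 2 weeks and the 42.4 mg/kg dose over 8. Control groups received L9 without polymer (Free L9) at 5.3 mg/kg (n = 3), the polymer alone (Brush) at 40 nmol (n = 2) or the polymer with a scrambled oligonucleotide (pacDNA-Scr) at 5.3 mg/kg (n = 2). Muscle was taken 2 weeks after the last injection, and each library came from 1 mouse.

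In DM1, RNA with an expanded CUG repeat stays in the nucleus, binds MBNL splicing factors and leaves many transcripts with a fetal splicing pattern. L9 is complementary to that repeat. Myo1a encodes brush border myosin I, a class I myosin that ties the actin core of intestinal microvilli to the membrane, and it is known as a gene of the gut epithelium rather than of muscle. Ccdc192 encodes a coiled-coil domain protein whose function is poorly known. Acta1 encodes the skeletal muscle actin of the thin filament and is the mouse counterpart of the transgene.

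Ccdc192 (ENSMUSG00000058925) lies at chr18:57666852-57864145 on the plus strand of GRCm39. GENCODE gives it 24 transcripts over 15 blocks of exons, 2366 bp in all. On the opposite strand, exons of the long noncoding RNAs 4930511M06Rik and Gm19519 cover 2.32% of its exon bases. Myo1a (ENSMUSG00000025401) lies at chr10:127541039-127556809, also on the plus strand, with 2 transcripts, 26 blocks and 3714 bp. An opposite-strand transcript covers 0.458% of its exon bases. The strand setting of the counting is not given in the sources used here, so reads from a gene and its antisense partner cannot be told apart in those bases.

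Reads were counted on genes in 13605309 to 26956558 pairs per library, and 17518 genes passed the filter on low counts. The libraries were deposited in a first set of 24 and a second set of 6, the second with 2 NT, 2 mice at 5.3 mg/kg, 1 at 21.2 mg/kg and 1 given Free L9. The table names 9 libraries by group and running number alone, among them all 3 at 42.4 mg/kg. The 37 mitochondrial genes had no counts in 5 of the libraries, all of them in the second set. Muscle fibre markers were abundant: 10 of 10 were tested, 2 were called higher in NT than in WT by edgeR (Mb, log2 fold change 1.62, and Myh1, 1.43, adjusted p = 0.00287 and 0.00941), and their summed level was 127000 to 166000 CPM (counts per 1e6 counts in the library) in WT and 135000 to 166000 in NT.

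The complement of L9, CTGCTGCTG, was searched on the sense strand of each annotated transcript. It was absent from the 24 Ccdc192 transcripts and the 2 Myo1a transcripts, whose longest uninterrupted run was 2 CTG units, and present in 2 of 37 Acta1 transcripts. Of 21770 protein-coding genes, 20.1% had at least 1 transcript with these letters. The Acta1 window and the first of 6 exonic CTG pairs of Myo1a are shown to compare a full match to L9 with the longest run in a member; capitals mark the CTG units.
Acta1, chr8:124623313-124623341, minus strand, untranslated exon: actcacctgcCTGCTGCTGcgccaggtgt
Myo1a, chr10:127542709-127542734, plus strand, coding exon: tcctacgtggCTGCTGtctgtgggaa
The 9-base match in Acta1 lay in an untranslated exon of 2 transcripts, and the 6-base match in Myo1a lay in coding sequence of 1.

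Ccdc192 was near the limit of detection in WT muscle and was counted in each HSA-LR mouse. The WT libraries held 0, 3, 6, 8 and 11 reads, or 0, 0.169, 0.301, 0.400 and 0.565 CPM after TMM scaling. The mouse without a read was WT 1, where 3 counts, the limit that a count of 0 allows, are worth 0.159 CPM. The NT mice measured 7.73, 8.73, 9.24, 10.6, 12.4, 14.7, 18.1 and 20.6 CPM. No NT mouse came near the WT range, and the lowest NT level stood above the highest WT level by more than the whole WT range. The means were 0.287 ± 0.216 CPM in WT (SD, n = 5) and 12.8 ± 4.68 CPM in NT (SD, n = 8), a fitted log2 fold change of 5.44 (SE 0.47). This fold change became 5.12 when WT 1 was left out.

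Myo1a showed a gap of the same kind. The WT mice measured 0.337, 0.351, 0.462, 0.600 and 2.07 CPM, from 6 to 39 reads, and WT 1 stood apart at 2.07 CPM. The NT mice measured 22.3, 24.2, 26.4, 27.4, 28.8, 33.5, 36.8 and 58.6 CPM. The groups did not overlap, and NT 6 was the highest NT mouse for both genes. The means were 0.763 ± 0.736 CPM in WT and 32.3 ± 11.7 CPM in NT, a log2 fold change of 5.39 (SE 0.45), which became 6.18 when WT 1 was left out. Per kilobase of exon, Myo1a was the more abundant of the pair in NT, at a level of 8.68 ± 3.14 CPM per kb against 5.40 ± 1.98 for Ccdc192, and mouse Acta1 stood at 11940 ± 2046 CPM per kb. In a bulk sample, more cells with a transcript and more RNA per cell cannot be told apart.

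**Figure D1:**
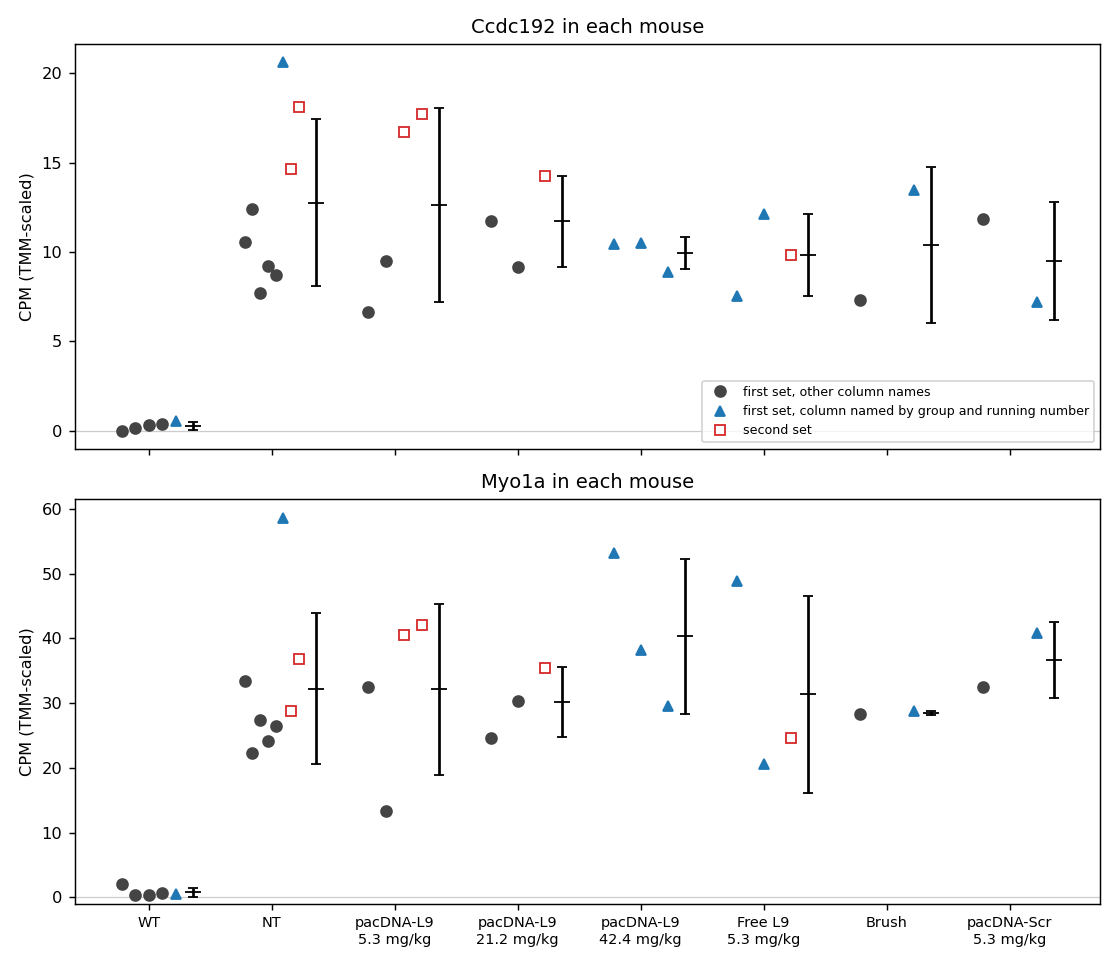
Ccdc192 (top) and Myo1a (bottom) in each mouse, in CPM after TMM scaling, by group; symbols mark the deposited set and the naming of the library, and bars show the mean ± SD over mice. The 5 WT mice lie at or below 0.565 CPM (Ccdc192) and 2.07 CPM (Myo1a), and the 25 HSA-LR mice lie at or above 6.65 and 13.4 CPM.

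The pair did not hold the top of the NT over WT list by fold change alone. Among the 419 genes past both limits (adjusted p under 0.05 by edgeR's quasi-likelihood test and an absolute log2 fold change over 1), 321 were higher in NT, which is 1.83% of the genes tested, and 0.559% were lower, and the pair ranked 14th and 15th. The genes above them had low levels, such as Clca4a (log2 fold change 7.86, mean 0.972 CPM over all libraries), which was at 0 in each WT mouse. Krt8, a keratin of simple epithelia, was the single gene above them with a mean of at least 1 CPM. Its log2 fold change was 6.32 at a mean of 4.63 CPM, and NT mice ran from 0.977 to 16.5 CPM.

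Just below the pair, among genes with at least 1 CPM and no overlap of NT and WT mice, stood Msantd5f9 (5.35), Sln (5.06), Chrna9 (4.88), Cimap3 (4.80) and Lrtm2 (4.76), given as log2 fold changes. Msantd5f9 averaged 4.78 CPM in the 6 second-set HSA-LR mice and 0.653 CPM in the 19 of the first set. All WT mice belong to the first set, and the part of the set in its fold change was not tested. Sln encodes sarcolipin, an inhibitor of the calcium pump of the sarcoplasmic reticulum, and rose from 0.337 to 5.39 CPM in WT to 38.1 to 108 CPM in NT. Chrna9 encodes an acetylcholine receptor subunit best known from the inner ear, and its NT mice ran from 0.380 to 9.32 CPM. Over all libraries Krt8, Msantd5f9, Chrna9 and Cimap3 had lower mean levels than either of the pair, while Sln (70.4 CPM) was above both and Lrtm2 (18.2 CPM) above Ccdc192.

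**Figure D2:**
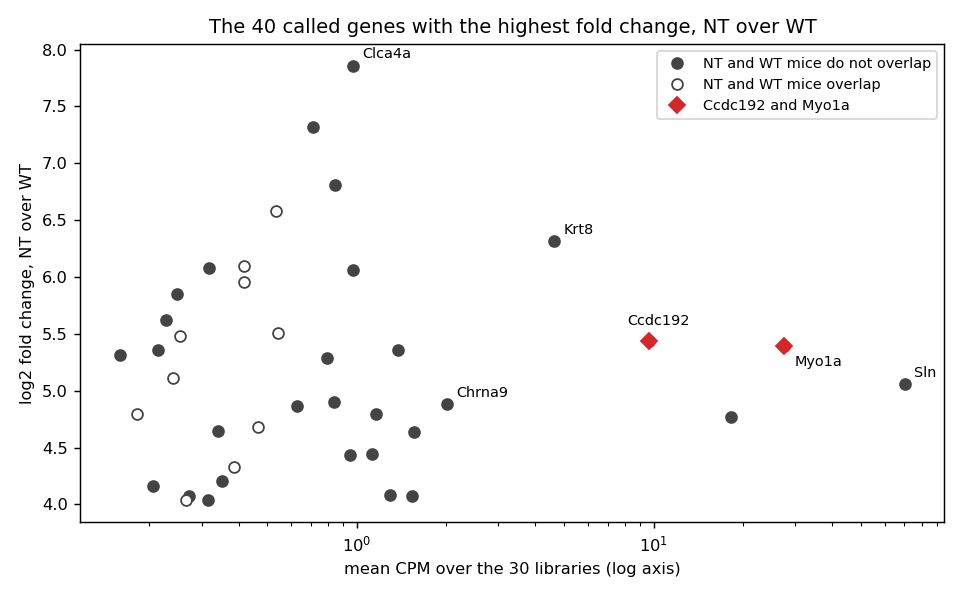
Log2 fold change of NT over WT (vertical axis) against mean CPM over the 30 libraries (log axis) for the 40 genes past both limits with the highest fold change; filled circles have no overlap between NT and WT mice and diamonds are Ccdc192 and Myo1a. The genes above the pair lie at 4.63 CPM or less, and the pair lies at 9.62 and 27.5 CPM.

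HSA-LR mice that the choice had not used showed the same high levels. Ccdc192 ran from 6.65 to 17.7 CPM and Myo1a from 13.4 to 53.2 CPM in the 17 treated or control-injected mice, with means of 10.9 ± 3.24 and 33.2 ± 10.1 CPM (SD, n = 17). Both genes rose against WT in each of the 6 groups. The log2 fold changes ran from 5.01 (SE 0.52, pacDNA-Scr) to 5.42 (SE 0.49, pacDNA-L9 at 5.3 mg/kg) for Ccdc192 and from 5.21 (SE 0.50, Brush) to 5.71 (SE 0.49, pacDNA-L9 at 42.4 mg/kg) for Myo1a. Without WT 1 those of Ccdc192 were lower, from 4.68 (pacDNA-Scr) to 5.09 (5.3 mg/kg), and those of Myo1a higher, from 6.00 (Brush) to 6.50 (42.4 mg/kg). The edgeR adjusted p over all genes ran from 3.04e-08 to 1.06e-06, and none of the 17 mice overlapped WT for either gene. The share of all genes tested without such overlap is not given here. In those comparisons 2.45% (5.3 mg/kg), 1.92% (21.2 mg/kg), 5.1% (42.4 mg/kg), 3.21% (Free L9), 1.36% (Brush) and 1.36% (pacDNA-Scr) of genes tested were called higher than WT. The WT mice were the same 5 that took part in the choice, and the 6 comparisons share them.

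No treatment lowered either gene by the test. Against NT, 0 of the 12 comparisons of a member passed by edgeR's quasi-likelihood test, at an adjusted p of 0.749 to 1, and none had an unadjusted p under 0.05. DESeq2 also called 0 of 12. In the same comparisons 0.651% of genes tested were called lower at 42.4 mg/kg, and 0% at 5.3 mg/kg, at 21.2 mg/kg and for Free L9, Brush and pacDNA-Scr, while 1.92% (42.4 mg/kg), 0.0514% (21.2 mg/kg), 0.126% (Free L9) and 0% (the others) were called higher. The NT mice in these comparisons also took part in the choice of the genes.

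For Ccdc192 at 42.4 mg/kg the 3 mice measured 8.91, 10.5 and 10.5 CPM, inside the NT range. The mean of 9.96 ± 0.909 CPM stood against 12.8 ± 4.68 CPM in NT, a log2 fold change of -0.36 (95% interval -1.16 to 0.45). At 21.2 mg/kg the mice measured 9.16, 11.8 and 14.3 CPM (log2 fold change -0.12, interval -0.92 to 0.67). These intervals hold both no change and a fall to about the lower bound, so neither was excluded with 3 mice. At 5.3 mg/kg the 4 mice measured 6.65, 9.51, 16.7 and 17.7 CPM, with the first 2 from the first deposited set and the last 2 from the second (log2 fold change -0.01, interval -0.73 to 0.70). The control injections gave 7.55, 9.84 and 12.1 CPM with Free L9, 7.33 and 13.5 CPM with Brush and 7.18 and 11.8 CPM with pacDNA-Scr. Their log2 fold changes against NT were -0.38, -0.29 and -0.43, so the group given the scrambled oligonucleotide had the lowest mean of the HSA-LR groups, at 9.51 ± 3.29 CPM, with its mice inside or just below the NT range.

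For Myo1a the 42.4 mg/kg mice measured 29.6, 38.2 and 53.2 CPM, and their mean of 40.3 ± 11.9 CPM was the highest of any group. It did not pass against NT (log2 fold change 0.32, interval -0.44 to 1.09), and the 3 mice overlapped the NT range. The paper places exon bins of Myo1a among those most recovered at 42.4 mg/kg. That score was taken on exon bins rather than gene counts, and exon bins were not analysed here. The 21.2 mg/kg mice measured 24.6, 30.3 and 35.5 CPM (log2 fold change -0.10, interval -0.88 to 0.68). The 5.3 mg/kg mice measured 13.4, 32.5, 40.5 and 42.0 CPM, the first being the lowest HSA-LR mouse for Myo1a (log2 fold change -0.01, interval -0.71 to 0.70). Free L9 gave 20.6, 24.7 and 48.8 CPM, Brush 28.3 and 28.7 CPM, and pacDNA-Scr 32.5 and 40.8 CPM. All group means of Myo1a in HSA-LR mice lay between 28.5 and 40.3 CPM, and the spread within groups of 3 or more reached an SD of 15.2 CPM. Among the HSA-LR groups, neighbours in the order of the means of Ccdc192 differed by less than the SD of either group. For Myo1a the same held except for Brush, whose 2 mice had an SD of 0.310 CPM and a mean of 28.5 CPM, below the 30.1 ± 5.41 CPM at 21.2 mg/kg.

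**Figure D3:**
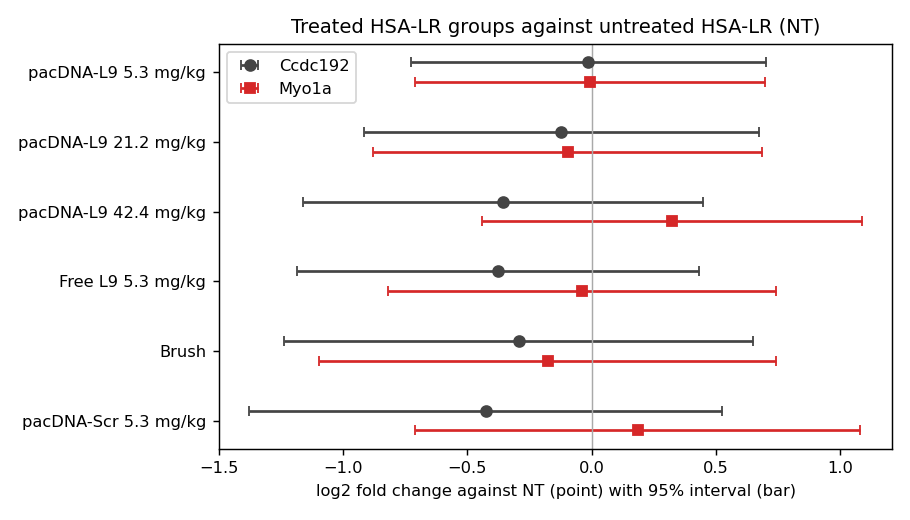
Log2 fold change against NT (points) with its 95% interval (bars) for Ccdc192 and Myo1a in the 6 injected groups of HSA-LR mice, from the edgeR fit over 30 libraries. Each interval spans 0, and the fold changes run from -0.43 to 0.18 for pacDNA-Scr and from -0.36 to 0.32 for pacDNA-L9 at 42.4 mg/kg.

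Over NT and the 3 doses of pacDNA-L9, the slope per 10 mg/kg was -0.09 on the log2 scale for Ccdc192 (SE 0.07, edgeR adjusted p = 0.627) and 0.06 for Myo1a (SE 0.07, adjusted p = 0.693). The slopes had opposite signs and neither passed, where 2.08% of genes rose and 0.582% fell with dose. The number of injections differed between dose groups, so a slope cannot tell dose from schedule. At the shared dose of 5.3 mg/kg, pacDNA-L9 differs from Free L9 by the polymer and from pacDNA-Scr by the order of the bases. The 3 pairs of these groups were compared, and for Ccdc192 pacDNA-L9 exceeded Free L9 by 0.36 on the log2 scale (interval -0.54 to 1.26, edgeR p adjusted over the 3 pairs 0.657) and pacDNA-Scr by 0.41 (interval -0.61 to 1.44, 0.657). For Myo1a the corresponding differences were 0.03 (interval -0.84 to 0.91) and -0.19 (interval -1.18 to 0.80), both at 0.942. Free L9 and pacDNA-Scr differed by 0.05 (interval -1.02 to 1.12) for Ccdc192 and by -0.22 (interval -1.27 to 0.82) for Myo1a. The interval reached a log2 difference of 1 in size for 5 of these 6 differences, so likeness of the compounds was not shown. Among all genes, 0.0114% were called lower in pacDNA-L9 than in Free L9 and 0% in the other pairs and directions.

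The levels moved with how the libraries were deposited and named. Among HSA-LR mice, Ccdc192 averaged 9.54 ± 1.93 CPM in the 11 first-set libraries with other names, 11.4 ± 4.31 in the 8 named by running number and 15.2 ± 3.07 in the 6 of the second set. Myo1a averaged 26.9 ± 5.79, 39.8 ± 13.2 and 34.7 ± 6.75 CPM in the same libraries. Ccdc192 was thus highest in the second set and Myo1a in the libraries named by running number, which include the 3 at 42.4 mg/kg and NT 6. With the naming as a covariate, the log2 fold change of 42.4 mg/kg against NT was -0.78 for Ccdc192 (edgeR adjusted p = 0.779) and 0.01 for Myo1a (adjusted p = 1). The part of the set and the naming in the levels was not tested.

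Sex, read from Xist and 4 Y-linked genes, also differed between groups: 4 of 8 NT mice and 1 of 5 WT mice were male, and none of the 3 at 42.4 mg/kg. WT 1, the WT mouse with 2.07 CPM of Myo1a and no read of Ccdc192, was that male. In the first set Ccdc192 ran from 10.6 to 20.6 CPM in 6 male HSA-LR mice and from 6.65 to 12.1 CPM in 13 females, and Myo1a from 22.3 to 58.6 and from 13.4 to 53.2 CPM. With sex and deposited set as covariates, Ccdc192 at 42.4 mg/kg differed from NT by -0.004 on the log2 scale (edgeR adjusted p = 1).

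Ccdc192 and Myo1a rose in the same animals relative to WT, but among the 25 HSA-LR mice their levels were not shown to move together. Pearson's r of log2 CPM was 0.261 and Spearman's rho 0.187, with permutation p of 0.208 and 0.37 (adjusted over the 3 gene pairs, 0.208 and 0.37). Without the 2 mice farthest from the median of Ccdc192, NT 6 and NT 8, r was 0.059. Within the first set r was 0.124 (n = 19), within the second 0.88 (n = 6, exact permutation p = 0.0222, adjusted 0.0667) and within NT 0.724 (n = 8, exact permutation p = 0.0309, adjusted 0.0927). After centring on group and set r was 0.0817 (n = 23), and with the naming of the library as well it turned to -0.529 (n = 18, adjusted permutation p = 0.305). Spearman's rho was below 0 in the first set (-0.126) and after centring on group and set (-0.162). The abundance of Myo1a over Ccdc192 per kilobase ran from 0.897 to 4.12 between mice, with a median of 1.75.

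Acta1 did not differ between NT and WT by the test (log2 fold change 0.14, SE 0.19, edgeR adjusted p = 0.719), and its HSA-LR libraries ran from 19510 to 57540 CPM. Ccdc192 and Acta1 gave r = -0.412 and rho = -0.389, with permutation p of 0.0399 and 0.0569, adjusted 0.12 and 0.171. Without NT 6 and NT 8, r was -0.516 (adjusted permutation p = 0.0315), and without NT 6 alone it was -0.527 (adjusted permutation p = 0.0215). Within the sets the relation was weaker, with r = -0.163 in the first (n = 19) and -0.213 in the second (n = 6). Spearman's rho was -0.0421 in the first set and 0.257 in the second, so the sign differed between the sets by rho alone. Acta1 itself averaged 33570 CPM in the second set against 45090 and 44850 CPM in the 2 kinds of first-set libraries. In NT alone r was -0.567 (n = 8, exact permutation p = 0.148).

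Myo1a and Acta1 gave r = 0.268 and rho = 0.261, with permutation p of 0.191 and 0.207, adjusted 0.208 and 0.311. Leaving out the 2 mice farthest from the median of Myo1a gave r = 0.251. Within the first set r was 0.503 (n = 19, permutation p = 0.0402, adjusted 0.121), within the second -0.282 (n = 6) and within NT 0.0044 (n = 8). After centring on group and set r was 0.552 (n = 23, permutation p within classes 0.0653, adjusted 0.196). Centring also on the naming of the library gave r = 0.676 (n = 18, adjusted permutation p = 0.034), which passed. Spearman's rho was 0.53 in the first set and 0.143 in the second, so the sign differed between the sets by r alone. Free L9 B, at 19510 CPM of Acta1 and 20.6 CPM of Myo1a, was low for both. The transgene's own reads were not analysed here, and whether some of them were counted as Acta1 was not tested.

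**Figure D4:**
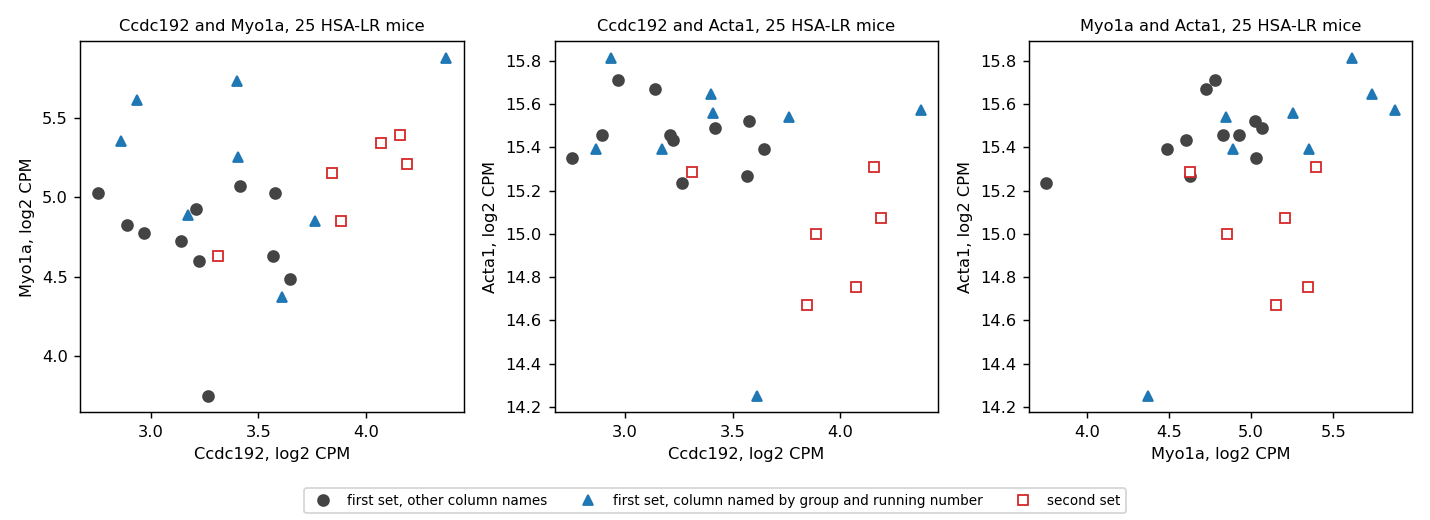
Log2 CPM of Ccdc192, Myo1a and mouse Acta1 against each other in the 25 HSA-LR mice, with symbols for the deposited set and the naming of the library. Of the second set (squares), 5 of 6 mice lie to the right for Ccdc192, and Acta1 is low in most of them, and r over all 25 mice is 0.261, -0.412 and 0.268 from left to right.

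The genes whose levels followed the members among HSA-LR mice, after centring on group and set, differed between the pair. For Ccdc192 the 5 highest correlations over 13344 genes were with Nexn (0.898), an actin-binding protein of the Z-disc, Lrrc2 (0.882), Metap2 (0.865), a methionine aminopeptidase, Idh3g (0.855), a subunit of isocitrate dehydrogenase, and Rab12 (0.849), a small GTPase. Myo1a ranked 5171st in that order. For Myo1a the highest included Cimip2a (0.891), Asb12 (0.817), Arl8a (0.797) and Dusp23 (0.787), and Ccdc192 ranked 6346th. Cimip2a was counted almost only in the second set, at 14.1 to 21.0 CPM against 0.0550 CPM or less in the first, so its correlation rests on few mice. Of these 9 named genes, only Lrrc2 (log2 fold change 0.81, adjusted p = 0.0415) and Asb12 (0.52, adjusted p = 0.0208) had an adjusted p under 0.05 by edgeR in NT against WT, as did 4.97% of all genes tested.

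Over all 30 libraries the order is set by the gap between WT and HSA-LR. Ccdc192 was then most like Sbk2 (0.955), Eda2r (0.94), Ctxn3 (0.934), Serpinb6a (0.932) and 2310020H05Rik (0.923), with Myo1a 12th at 0.913. Myo1a was most like Cpne2 (0.957), Plekho1 (0.954), Serpinb6a (0.95), Klhl41 (0.948) and Uchl1 (0.945), with Ccdc192 17th. Serpinb6a, a serine protease inhibitor, was in both lists and rose from 108.2 ± 10.1 CPM in WT to 454.9 ± 99.9 CPM in NT. Eda2r, a receptor of ectodysplasin A2, rose from 8.27 ± 2.01 to 84.0 ± 32.3 CPM. These are descriptions over libraries that share the WT mice.

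Some genes around Ccdc192 rose in NT as well. Of 9 tested genes that lie within 500 kb of its ends, 3 passed both limits in NT against WT, all higher, where 1.83% of genes tested did. Ctxn3, a cortexin gene that ends 55.6 kb upstream on the same strand and shares no exon with Ccdc192, rose from 10.8 ± 3.00 CPM in WT to 67.1 ± 15.0 CPM in NT (log2 fold change 2.63, SE 0.24, edgeR adjusted p = 5.62e-08). WT ran from 6.31 to 13.8 CPM and NT from 45.8 to 84.7 CPM. The other pair were long noncoding RNAs on the opposite strand that overlap the gene's span.

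4930511M06Rik rose from 0.083 ± 0.027 to 1.28 ± 0.627 CPM (log2 fold change 3.85, SE 0.48, edgeR adjusted p = 7.94e-06), and it shares exon bases with Ccdc192. 2210409D07Rik was at 0 in each WT mouse and ran from 0 to 0.325 CPM in NT (adjusted p = 0.00737). Gm19519, which also shares exon bases with Ccdc192, was at 2.77 to 5.28 CPM in the 6 second-set mice and at 0.175 CPM or less in the other HSA-LR mice, and did not pass by edgeR (adjusted p = 0.197), though DESeq2 called it. The remaining 5, Megf10, Prrc1, Gm19500, Slc12a2 and Fbn2, had log2 fold changes from -0.54 to 1.63 and did not pass. Like Ccdc192, Ctxn3 was not called against NT in any injected group, and at 42.4 mg/kg its log2 fold change was 0.19 (adjusted p = 0.8).

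The genes around Myo1a gave fewer calls. Of 27 tested genes within 500 kb, 0 passed both limits by edgeR and 1 by DESeq2, which called 1130 genes in all. By edgeR, 6 of the 27 had an unadjusted p under 0.05, as did 3771 of the 17518 genes tested. The median log2 fold change of the 27 was -0.06 against 0.03 over all genes tested. Rbms2, an RNA-binding protein gene, had an adjusted p under 0.05 with a log2 fold change of 0.34 (SE 0.08, adjusted p = 0.0116). Gm16229 had a fitted log2 fold change of 7.90 by edgeR that did not pass (SE 3.59, adjusted p = 0.226) and was the DESeq2 call; it was counted only in the 6 second-set libraries, at 4.20 to 7.62 CPM. Nemp1, which ends 4.1 kb upstream of Myo1a, measured 3.51 ± 0.358 CPM in WT and 2.65 ± 0.362 CPM in NT (log2 fold change -0.41, adjusted p = 0.664).

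**Figure D5:**
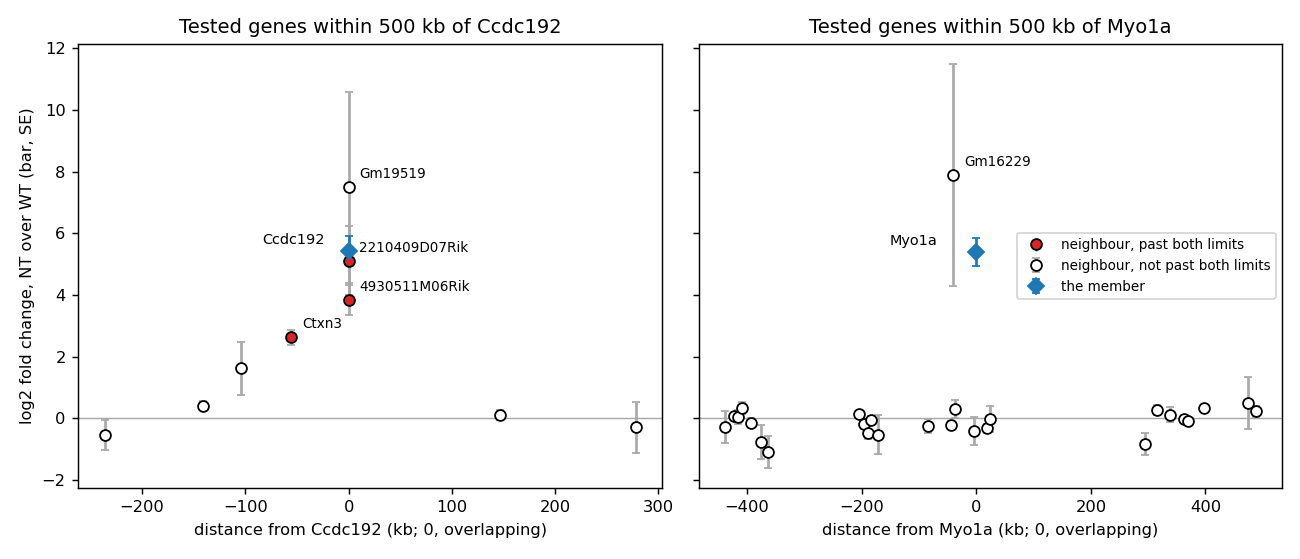
Log2 fold change of NT over WT (points, with SE as bars) for the tested genes that lie within 500 kb of Ccdc192 (left) and Myo1a (right), by distance from the member's ends. Beside Ccdc192, Ctxn3 (2.63), 4930511M06Rik (3.85) and 2210409D07Rik (5.12) pass both limits, and beside Myo1a no gene does by edgeR.

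The other class I myosins were not shown to rise with Myo1a. All 7 were tested and 0 passed by edgeR or DESeq2, with a median log2 fold change of -0.35. By edgeR, 3 had an unadjusted p under 0.05, among them Myo1c and Myo1h, as did 3771 of the 17518 genes tested. Myo1c (-0.34), Myo1d (-0.41), Myo1e (-0.31), Myo1f (-0.50) and Myo1g (0.01) measured near or below their WT level. Myo1h had a log2 fold change of 5.07 (SE 2.20, adjusted p = 0.207), and in the second set it ran from 10.3 to 15.6 CPM against 0.387 CPM or less in the 19 other HSA-LR mice.

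Of 15 brush border genes, partners of Myo1a in intestinal microvilli, 8 passed the filter on low counts and 1 was called higher, Ush1c, where 1.83% of all genes tested were. Ush1c, which encodes the scaffold protein harmonin, rose from 0.272 ± 0.065 CPM in WT to 1.46 ± 0.383 CPM in NT (log2 fold change 2.39, SE 0.39, edgeR adjusted p = 0.000282). Cobl, an actin nucleator, measured 42.6 ± 3.93 CPM in WT and 61.4 ± 7.00 CPM in NT without passing (log2 fold change 0.53, adjusted p = 0.054). The median of the 8 was -0.10. Vil1, the villin of microvilli, had at most 8 reads in any library, and Cdhr2 had none.

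Markers of absorptive enterocytes, the cells that normally hold Myo1a, were nearly absent. Fabp2, Sis, Alpi and Rbp2 had no read in any library, Lct, Apoa4 and Slc5a1 had at most 4, and Anpep, the 1 of 8 tested, did not pass (log2 fold change 0.06, adjusted p = 0.929). Of 10 genes of the intestinal epithelium, 6 were tested and 2 were called higher (1.83% of all genes tested were, here and for the lists that follow), Krt8 and Krt18, keratins also found in other simple epithelia. Krt8 averaged 0.052 CPM in WT and 4.64 in NT, and Krt18 0.28 and 3.89. The other tested genes did not pass by edgeR, with log2 fold changes of 2.11 (Epcam), -1.32 (Cdh1), -0.54 (Krt19) and -0.40 (Lgals4). The summed level of that list was 2.01 to 3.16 CPM in WT, 3.58 to 30.9 CPM in NT and 4.12 to 43.4 CPM in the injected mice, while the defining factors Cdx1 and Cdx2 were at 0 throughout. Of 10 genes of motile ciliated cells, 3 were tested and Tekt1 (log2 fold change 2.26, adjusted p = 0.00474) and Rsph1 (1.51, adjusted p = 0.015) were higher by edgeR, while Dnah5 and Sntn had no read. Of 7 testis germ cell genes 2 were tested and 0 called by edgeR or DESeq2, and none of 4 hair cell genes was tested. Of the 2 germ cell genes, 1 (Sycp3) had an unadjusted edgeR p under 0.05, as did 3771 of the 17518 genes tested. Of 16 tested markers of macrophages, fibroblasts, endothelium, adipocytes and satellite cells, Cd68 was called higher by edgeR, and DESeq2 also called Col1a1 lower. The part of such cells in the levels of Ccdc192 and Myo1a was not tested.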

How the data were processed

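Poly(A) RNA from quadriceps was sequenced as paired-end reads. The submitters' processing notes name HISAT2 2.0.5, DESeq2 and GRCm39, and the authors deposited raw counts per Ensembl gene without normalization. The counting options are not given in the sources used here. Identifiers were matched to GENCODE vM39 (56017 of 56748). The column of 1 WT mouse could not be tied to a single sample and was used as a WT mouse without a number.

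In R 4.3.3, edgeR 4.0.16 filtered the genes (filterByExpr), scaled the libraries (TMM) and fitted 1 quasi-likelihood model, robust to outlying genes, to the 8 groups of all 30 mice. Adjustment was by Benjamini-Hochberg over the 17518 genes left. Calls in NT against WT also needed a log2 fold change over 1 in size. Intervals are the estimate ± 1.96 SE. DESeq2 1.42.0 was the alternative tool. Levels are CPM after TMM scaling, with 3 counts taken as the detection floor. Correlations used log2 CPM with a prior count of 2 and 100000 permutations (exact under 10 mice; within classes after centring). The scripts were tested on simulated data. The same-number correlations of WT and NT mice ran from -0.0468 to 0.192 and those of different numbers from -0.185 to 0.183. These ranges overlap, so they do not decide whether the numbers pair animals, and the main model used no pairing. P-values measure the spread between mice.

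Named genes were the pair, Acta1, the 5 genes that follow the pair in NT over WT, the 5 most correlated genes per member, neighbours within 500 kb and listed families. Members and lists were chosen with earlier results of these data known. Models with sex, naming of the library or without libraries lacking mitochondrial counts were added after the data had been seen. A few genes of the lists are not reported here.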

Additional observations from a re-analysis of the deposited data

Results flagged for a closer look

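Gaps between 1 mouse and the rest of its group, by Dixon's 95% limit, were examined for Ccdc192, Myo1a and Acta1 in 9 groups of 4 to 10 mice, and 3 were past the limit. About 1 in 20 such groups is past it by chance. Myo1a in WT 1 was 2.07 CPM, and the gap to the next WT mouse was 0.848 of the range. Acta1 was also highest in WT 1, at 50640 CPM, with a gap of 0.716 of the range. Myo1a in NT 6 was 58.6 CPM, with a gap of 0.6 of the range. WT 1 was the single male among the WT mice, and NT 6 was the single NT library named by group and running number alone.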

How the results depend on the processing

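Against WT, the 12 fold changes of Ccdc192 and Myo1a in injected mice kept their direction in each of 504 alternative values. Their adjusted p by edgeR or DESeq2 was at most 6.83e-05. These values reuse the WT mice that took part in the choice, so a large gap was in part set by it. The 20 comparisons among HSA-LR groups, dose slopes included, passed in none of 854 alternative values. The direction turned in 62 of those 854. Requiring 10 counts in every library removed both genes and left 264 called genes in NT against WT, and DESeq2 called 1130, against 419. Leaving out 1 mouse gave 348 to 526 (526 without Free L9 B).

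Differences from here on are log2 values that turned sign. Ccdc192 at 5.3 mg/kg against NT was 0.0079 with library size alone, 0.075 with naming as a covariate, 0.073 with sex and 0.050 in the second set. Myo1a at 5.3 mg/kg against NT was 0.0027 with DESeq2 size factors, 0.0028 with DESeq2, 0.020 with library size alone, 0.073 with naming, 0.099 with sex, 0.014 with sex and set and 0.31 in the second set. Ccdc192 at 21.2 mg/kg against NT was 0.023 in the first set with naming, and Myo1a was 0.029 with sex and 0.12 in the second set. Myo1a at 42.4 mg/kg against NT was -0.0063 in the first set with naming. Myo1a with Free L9 against NT was 0.12 in the first set, 0.091 with sex and 0.068 with sex and set. The dose slope was 0.022 for Ccdc192 with sex and set, and -0.065 with naming and -0.081 in the first set with naming for Myo1a.

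At equal dose, pacDNA-L9 minus Free L9 was -0.28 for Ccdc192 in the first set and -0.28 without the 5 libraries lacking mitochondrial counts. For Myo1a it was -0.61 and -0.45 under the same settings, -0.053 with the set, -0.054 with sex and set and -0.16 in the first set with naming. PacDNA-L9 minus pacDNA-Scr was -0.22 (first set) and -0.23 (without the 5 libraries) for Ccdc192 and 0.013 (naming) for Myo1a. Free L9 minus pacDNA-Scr for Ccdc192 was -0.020 with library size alone, -0.11 with the set, -0.095 with naming and -0.39 in the first set with naming. The 5 libraries lacking mitochondrial counts all belong to the second set, so leaving them out is close to using the first set alone. The cause of the turns in sign was not tested.

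Leaving out 1 mouse at a time gave these ranges against NT for Ccdc192: -0.23 to 0.20 (5.3 mg/kg), -0.29 to 0.027 (21.2 mg/kg), -0.44 to -0.23 (42.4 mg/kg), -0.58 to -0.22 (Free L9), -0.81 to 0.078 (Brush) and -0.83 to -0.11 (pacDNA-Scr). For Myo1a they were -0.17 to 0.25, -0.23 to 0.086, 0.06 to 0.50, -0.52 to 0.17, -0.24 to 0.0025 and 0.01 to 0.36 in the same order. At equal dose, Free L9 minus pacDNA-Scr ran from -0.28 to 0.45 for Ccdc192, and for Myo1a pacDNA-L9 ran from -0.19 to 0.50 over Free L9 and from -0.35 to 0.066 over pacDNA-Scr.

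A replicate block that paired WT 1 to 4 with NT 1 to 4 called 326 genes, against 344 in the same mice without it, and gave 5.46 for Ccdc192 and 5.17 for Myo1a. The unnumbered WT mouse could not be paired. A replicate block on the letters turned Myo1a in pacDNA-L9 minus Free L9 (-0.21) and Ccdc192 in pacDNA-L9 minus pacDNA-Scr (-0.20), and no call changed.

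For the correlations, Ccdc192 and Myo1a gave r = -0.529 after centring on group, set and naming, and leaving out 1 mouse gave 0.106 to 0.358. Ccdc192 and Acta1 passed with library size alone (-0.536), without the 2 farthest mice (-0.516) and without NT 6 (-0.527, the lowest of a range up to -0.351). Myo1a and Acta1 turned in the second set (-0.282) and passed after centring on group, set and naming (0.676), with 0.126 to 0.351 without 1 mouse.

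With 2 to 4 mice per injected group, the intervals against NT reached from -1.38 to 1.09 on the log2 scale, and changes inside a group's interval were not excluded. WT levels of Ccdc192 rest on 0 to 11 reads, where 3 reads are worth 0.150 to 0.169 CPM.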

Other observations

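Among the 25 HSA-LR mice, a model with group, sex and deposited set, chosen after the values had been seen, gave Ccdc192 a male minus female difference of 0.46 on the log2 scale (SE 0.15). By edgeR's quasi-likelihood test it had an unadjusted p of 0.0068 and did not pass over the 17408 genes tested (adjusted p = 0.185), and 1.16% of genes did. In the first set the means were 13.5 ± 3.63 CPM in 6 males and 8.85 ± 1.57 CPM in 13 females, and in the second 15.2 ± 4.68 CPM in 3 males and 15.2 ± 1.31 CPM in 3 females. Myo1a differed by 0.12 (SE 0.21, adjusted p = 0.901).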
